A study of Mus musculus with 3 samples.

Results

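The response of mouse liver microRNAs to warm ischemia alone, before blood returns, was described by setting the warm ischemia library (WI) against the sham library (Sham). Members were all mature microRNAs with at least 10 reads summed over these 2 libraries, which took 411 of the 1908 microRNAs listed, and 782 of the 1908 had at least 1 read in either library. The libraries came from livers of male C57BL/6J mice aged 8 to 10 weeks, an inbred laboratory strain, and no engineered gene change is stated. In the WI group the portal triad (hepatic artery, portal vein and bile duct) feeding the left and median lobes was clamped for 90 min, which leaves the other lobes supplied. In the Sham group the abdomen was opened without clamping and the livers were taken 90 min later. Another library (IR), from livers clamped for 90 min and then reperfused for 120 min, is given for reference beside some values, and any reading of IR against Sham shares the Sham library with the comparison made here. Each group had 6 mice and 1 library, and whether RNA of several mice was mixed in a library is not stated in the sources used here. All differences below are therefore differences between 2 libraries with no replicate check, and their intervals cover counting error only. The study also ran quantitative PCR on selected microRNAs, with primers listed for miR-5100, miR-133a-3p, miR-212-5p and miR-501-3p. Its PCR values were not used here. Copies made by PCR were counted as separate reads, so the intervals may be too narrow even for counting error.

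MicroRNAs are short RNAs cut from hairpin precursors. Either strand of the hairpin, named the 5p or 3p arm, can be loaded into an Argonaute protein, and the loaded strand represses messenger RNAs that pair with its seed, bases 2 to 8. MicroRNAs with the same seed form a family with shared targets, and hairpins that lie close together in the genome are often cut from 1 transcript. Some microRNAs are made largely by particular cells, such as miR-122 by hepatocytes, miR-451a by red blood cells and miR-133a by striated muscle, so that their levels in a tissue also follow its cell make-up.

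The sequences below are those of called microRNAs for which RefSeq held an entry and which had at least 50 reads over Sham and WI, with miR-33-3p added as the other called arm of miR-33. They are written 5′ to 3′ with the seed in capitals. Those higher in WI are shown first.
miR-5100: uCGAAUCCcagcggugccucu
miR-455-3p: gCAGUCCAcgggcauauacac
miR-33-5p: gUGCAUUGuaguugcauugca
miR-33-3p: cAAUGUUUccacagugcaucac
miR-27a-5p: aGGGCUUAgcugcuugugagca
miR-92b-3p: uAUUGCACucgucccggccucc
miR-1249-3p: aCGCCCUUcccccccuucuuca
miR-190a-5p: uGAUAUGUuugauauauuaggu
miR-1247-5p: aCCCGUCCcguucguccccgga
miR-10b-5p: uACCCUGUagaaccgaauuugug
Those lower in WI follow.
miR-149-5p: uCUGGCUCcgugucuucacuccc
miR-212-3p: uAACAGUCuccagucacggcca
miR-212-5p: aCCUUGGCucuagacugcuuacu
miR-184-3p: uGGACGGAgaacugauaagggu
miR-6238: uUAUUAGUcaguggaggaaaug
miR-6236: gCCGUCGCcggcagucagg
None of these 16 shares its seed with another of them. The full sequence of each had 1 exact match in the mm9 mouse genome when both strands were searched. Places that match with 1 mismatch, which the alignment of reads allowed, were not searched. Some seed mates that were not called themselves are shown for comparison, since the rest of the sequence is what tells them apart in a read.
miR-10a-5p: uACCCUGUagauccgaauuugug
miR-92a-3p: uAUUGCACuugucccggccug
miR-132-3p: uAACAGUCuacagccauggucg
miR-190b-5p: uGAUAUGUuugauauuggguug
Between miR-10a-5p and miR-10b-5p there is 1 difference (U12A, counted from the 5′ end, miR-10a first), and between miR-92a-3p and miR-92b-3p there are 2 (U10C and G21C). MiR-132-3p and miR-212-3p differ at 5 of 22 bases. The shares of miR-212-3p and of miR-190a-5p in the reads of their pairs had overlapping 95% Wilson intervals in Sham and WI.

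Most microRNAs differed little between WI and Sham. Levels were expressed as normalised read counts per 1000000 reads (CPM) after TMM scaling, in which a trimmed mean of log ratios sets the libraries to a common scale. The libraries held 3844133 microRNA reads (Sham) and 5064014 (WI). A count of 3 reads, taken as the smallest told from none, is 0.758 CPM in Sham and 0.617 CPM in WI. Over the 411 members the median log2 fold change of WI over Sham was 0.04, and the middle 50% lay between -0.18 and 0.26. Scaling by the totals of all genome-aligned reads would place this median at 0.19, and scaling by microRNA read totals at -0.06, so a log2 value close to 0 can change sign with the scaling. Below, reads are given in the order Sham, WI and IR, or Sham and WI, followed by the ratio or the log2 fold change with its interval, and coordinates are those of GRCm38. A microRNA was called when its ratio, on (CPM + 0.1), passed 1.5-fold and its exact 95% counting interval excluded 1. By this rule 15 were called higher (3.65% of 411) and 9 lower (2.19%) in WI. A ratio over 1.5-fold without regard to the interval was found for 35 upward (8.52%) and 28 downward (6.81%). The 39 that passed the fold but were not called had at most 61 reads over both libraries. An interval clear of 1, at any fold, was found for 84 upward (20.4%) and 47 downward (11.4%). The share of members above 0 on the log2 scale was 54.3% and below 0 was 45.7%.

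The called microRNAs were scarce ones. Together the 24 took 0.0778% of the microRNA reads in Sham and 0.102% in WI. None of the 50 members with 10000 reads or more over both libraries passed 1.5-fold, and their log2 fold changes ran from -0.41 to 0.36, although 84.0% of them had an interval clear of 1. The 70 members with 1000 to 10000 reads gave 1 call, the 84 with 200 to 1000 reads gave 4, the 90 with 50 to 200 reads gave 14 and the 117 with 10 to 50 reads gave 5. The most-read microRNAs kept nearly the same level. MiR-192-5p, made in hepatocytes and gut epithelium, had 962981 reads in Sham and 1255380 in WI (log2 fold change 0.09). MiR-22-3p had 723065 and 930070 reads (0.07), and miR-148a-3p, abundant in hepatocytes, had 295509 and 409108 (0.17).

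**Figure D1:**
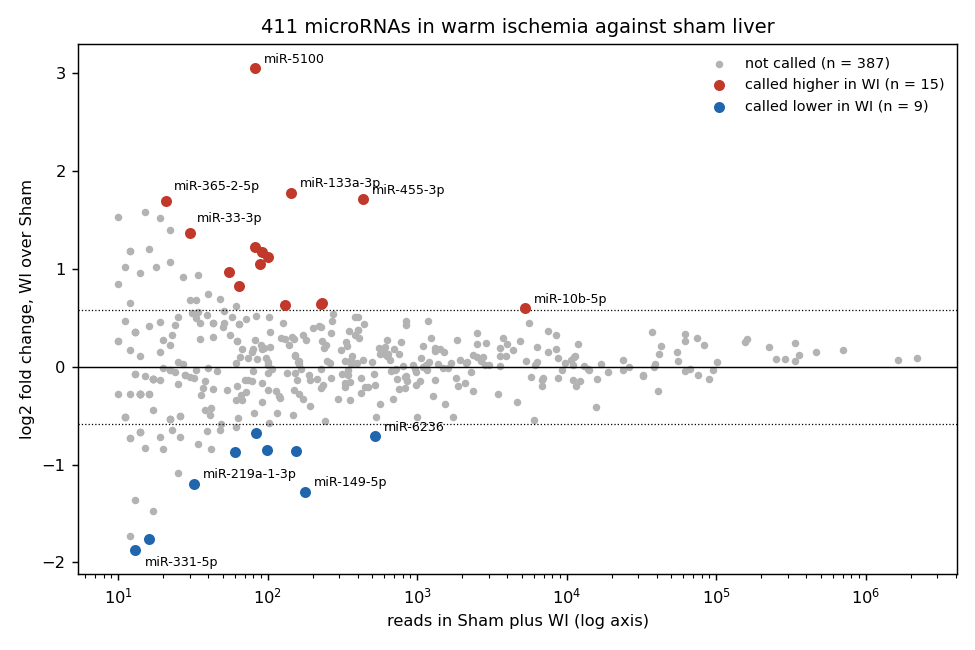
Log2 fold change of WI over Sham (vertical axis) against the reads of both libraries summed (horizontal log axis) for the 411 members, 1 point per microRNA. The dotted lines mark 1.5-fold. The 15 called higher and 9 called lower lie mostly below 1000 reads, and the points close in on 0 as reads increase.

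The 15 microRNAs called higher in WI were led by miR-5100. MiR-5100, annotated without an arm at chr11:60728663-60728726 (GRCm38), had 7 (Sham), 75 (WI) and 186 (IR) reads. Its level went from 1.77 to 15.4 CPM, a ratio of 8.31 (4.03 to 22.4). MiR-133a-3p, which striated muscle makes, had 27 (Sham), 115 (WI) and 280 (IR) reads, a WI to Sham ratio of 3.43 (2.26 to 5.49). Both were higher again in IR than in WI.

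MiR-455-3p stood apart in depth among the large differences. It comes from chr4:63256867-63256924, in an intron of Col27a1, a fibrillar collagen gene, and had 86 (Sham), 347 (WI) and 110 (IR) reads. The WI to Sham ratio was 3.27 (2.59 to 4.21), with 21.7 (Sham), 71.3 (WI) and 28.8 (IR) CPM, so that WI was the high library and the other two lay close together.

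Both arms of miR-33 were called. This microRNA lies in an intron of Srebf2, the gene of a transcription factor that turns on cholesterol synthesis, and is known to repress the cholesterol exporter Abca1. MiR-33-5p had 21 (Sham), 61 (WI) and 18 (IR) reads, a ratio of 2.34 (1.42 to 4.09). MiR-33-3p had 7, 23 and 13 reads in the same order, a ratio of 2.58 (1.11 to 7.38). The hairpin is printed with both arms in capitals, because it was the only one with both arms called higher (Mir33, chr15:82198122-82198190, GRCm38, plus strand).
Mir33: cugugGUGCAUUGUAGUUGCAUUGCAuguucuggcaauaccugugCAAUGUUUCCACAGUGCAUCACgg
In both arms the WI library had the highest level of the 3.

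The other microRNAs called higher were smaller differences or rarer species. MiR-27a-5p, the lesser arm of a hairpin outside other genes at chr8:84208672-84208758, had 24 (Sham), 67 (WI) and 20 (IR) reads, a ratio of 2.25 (1.41 to 3.79). MiR-92b-3p (chr3:89227116-89227198, outside other genes) had 27, 73 and 46 reads, a ratio of 2.18 (1.40 to 3.56). MiR-1249-3p (chr15:84951526-84951623, in an exon of 5031439G07Rik) had 25, 64 and 33 reads, a ratio of 2.07 (1.29 to 3.45). In these, WI was again above both other libraries.

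MiR-190a-5p (chr9:67236660-67236726) had 16 (Sham), 39 (WI) and 18 (IR) reads, a ratio of 1.96 (1.08 to 3.80). MiR-34c-5p, a known target of p53, had 20, 44 and 43 reads, a ratio of 1.78 (1.03 to 3.21). MiR-375-3p, which endocrine cells of pancreas and gut make, had 45, 86 and 36 reads, a ratio of 1.55 (1.07 to 2.28). The lower ends of these intervals came near 1, and the calls of miR-34c-5p (log2 fold change 0.73) and miR-375-3p were lost with microRNA read totals.

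MiR-1247-5p (chr12:110278048-110278129, outside other genes) had 78 (Sham), 151 (WI) and 53 (IR) reads, a ratio of 1.57 (1.19 to 2.10). MiR-1948-5p had 78, 150 and 436 reads, a ratio of 1.56 (1.18 to 2.09). MiR-365-2-5p had the fewest reads of those called higher, with 4 in Sham, 17 in WI and 4 in IR, and its interval was wide (ratio 3.24, 1.13 to 14.1). The major arm miR-365-3p had 613 and 771 reads and a log2 fold change of 0.03.

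MiR-10b-5p was the 1 called microRNA with over 1000 reads. It lies in introns of Hoxd3 and Hoxd4, genes of the body-plan HOX cluster on chromosome 2 (chr2:74726070-74726137), and had 1834 (Sham), 3411 (WI) and 3602 (IR) reads. The WI to Sham ratio was 1.51 (1.43 to 1.60), which lies at the fold threshold, and the call was lost with DESeq2 size factors (log2 fold change 0.55). Its near-copy miR-10a-5p had 148200 reads in Sham and 190149 in WI (0.06). Since 1 base separates them and alignment allowed 1 mismatch, reads of the abundant copy read with an error at that base could be counted under the rare one, and the count of miR-10b-5p is uncertain to that extent. Its share of the reads of both was 1.22% (95% Wilson interval 1.17 to 1.28) in Sham, 1.76% (1.70 to 1.82) in WI and 2.22% (2.15 to 2.30) in IR.

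Of the 9 microRNAs called lower in WI, miR-149-5p had the best-counted large difference. It comes from an intron of Gpc1, the gene of the cell-surface proteoglycan glypican 1 (chr1:92850378-92850443), and had 117 (Sham), 59 (WI) and 113 (IR) reads. The Sham to WI ratio was 2.42 (1.77 to 3.39), with 29.5 (Sham), 12.1 (WI) and 29.6 (IR) CPM. WI was the low library and the other two were level.

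Both arms of miR-212 were called lower. MiR-212 and its neighbour miR-132 are known targets of the transcription factor CREB and lie in an intron of the long non-coding RNA 1700016P03Rik. MiR-212-3p had 36 (Sham), 24 (WI) and 66 (IR) reads, a Sham to WI ratio of 1.83 (1.07 to 3.23). MiR-212-5p had 47, 36 and 29 reads, a ratio of 1.60 (1.02 to 2.55). Both calls were lost with genome-aligned totals (log2 fold changes -0.72 and -0.52) and with a 99% interval. The hairpin is printed with both arms in capitals (Mir212, chr11:75173388-75173478, GRCm38, plus strand).
Mir212: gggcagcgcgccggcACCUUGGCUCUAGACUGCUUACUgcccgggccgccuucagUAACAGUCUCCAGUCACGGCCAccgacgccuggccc
The arms shared the low level in WI but parted in IR, where 3p was above Sham and 5p was not. Cut from the same transcript, miR-132-3p had 112, 121 and 283 reads and a log2 fold change of -0.18 (-0.57 to 0.20), and miR-132-5p had 9, 13 and 18 reads.

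Among the rest, miR-184-3p, best known from lens and cornea (chr9:89802260-89802328, outside other genes), had 59 (Sham), 40 (WI) and 40 (IR) reads, a ratio of 1.80 (1.19 to 2.78). MiR-6238 (chr7:53891761-53891889) had 92, 62 and 42 reads, a ratio of 1.82 (1.31 to 2.56). MiR-6236 had 298, 224 and 425 reads, a ratio of 1.63 (1.37 to 1.95). MiR-6238 and miR-6236 are named without an arm. The last was above Sham in IR, whereas the first 2 were below it.

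The 3 rarest lower calls rested on few reads. MiR-219a-1-3p had 21 (Sham), 11 (WI) and 29 (IR) reads, a ratio of 2.29 (1.08 to 5.39), while its other arm miR-219a-5p, which 2 hairpins can supply, had 13, 27 and 16. MiR-185-3p (in an intron of D16H22S680E) had 12, 4 and 7 reads, a ratio of 3.39 (1.12 to 15.7), against 162 and 245 reads of miR-185-5p in Sham and WI. MiR-331-5p (in an exon of Vezt) had 10, 3 and 7 reads, a ratio of 3.66 (1.05 to 23.2), against 109 and 140 reads of miR-331-3p. In each of these 3 hairpins the other arm was not called.

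**Figure D2:**
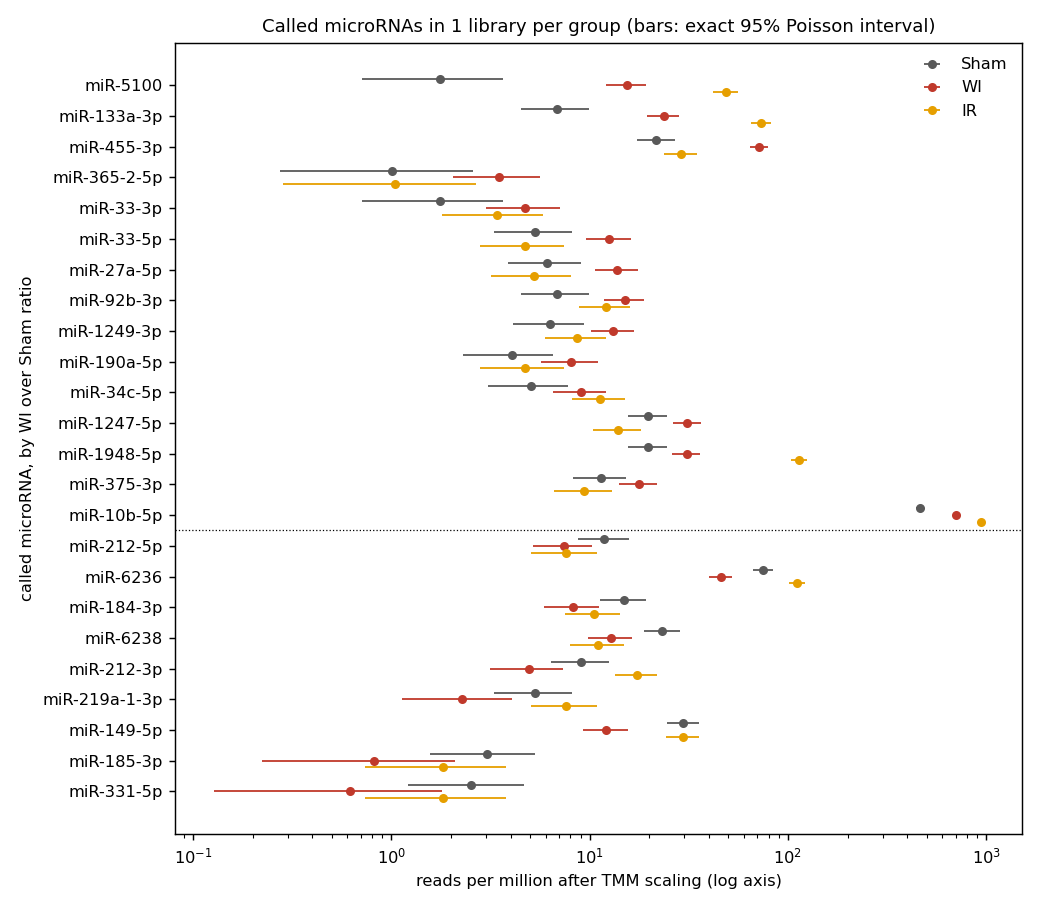
Level of each called microRNA in Sham, WI and IR (horizontal log axis, CPM after TMM scaling), 1 library each, with exact 95% Poisson intervals of the counts. Above the dotted line are the 15 called higher in WI and below it the 9 called lower, ordered by the WI to Sham ratio. MiR-455-3p is high in WI only and miR-149-5p is low in WI only, while miR-5100 and miR-133a-3p are higher still in IR.

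The arms of 1 hairpin were compared next, because they are cut from the same precursor. Both arms were members for 112 hairpins, and for 77 both arms had at least 50 reads over Sham and WI. Across these 77 the log2 fold changes of the 5p and 3p arms had a Pearson r of 0.17 and a Spearman rho of 0.16, and 41 of 77 pairs had the same sign. All points share the same 2 libraries and hairpins are not replicates. The median absolute difference between arms was 0.22 on the log2 scale.

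The share of the lesser arm had Wilson intervals that stood apart between Sham and WI for 11 of the 77 hairpins, 8 with a larger share in WI and 3 with a smaller one. MiR-455 had the largest shift. Its 3p arm made 26.6% (22.1 to 31.7) of the hairpin's reads in Sham, 55.6% (51.7 to 59.5) in WI and 31.9% (27.2 to 37.0) in IR, while miR-455-5p had 237 (Sham), 277 (WI) and 235 (IR) reads (log2 fold change -0.07). The arm with fewer reads in Sham and IR was thus the one with more reads in WI. MiR-455-3p and miR-455-5p are shown side by side.
miR-455-3p: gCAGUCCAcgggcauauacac
miR-455-5p: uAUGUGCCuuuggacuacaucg
MiR-27a showed the same kind of split on the other arm. The share of miR-27a-5p was 0.727% (0.489 to 1.08) in Sham, 1.78% (1.40 to 2.25) in WI and 0.654% (0.424 to 1.01) in IR, and the main arm miR-27a-3p had 3276 reads in Sham and 3706 in WI (-0.12, -0.19 to -0.05). Its hairpin is given with both arms in capitals (Mir27a, chr8:84208672-84208758, GRCm38, plus strand).
Mir27a: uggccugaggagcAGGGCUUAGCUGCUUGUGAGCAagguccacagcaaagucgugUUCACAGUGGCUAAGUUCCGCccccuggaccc
Within the same cluster miR-23a-3p had 1171 and 1701 reads (0.24) and miR-24-2-5p 453 and 645 (0.21), so the 4 members from this transcript spread from -0.12 to 1.17.

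The other hairpins with separate shares had smaller shifts. The 3p share of miR-142, a microRNA of white blood cells, was 3.86% in Sham and 5.39% in WI, and that of miR-144, made in red cell precursors, was 38.3% and 45.1%. The 3p share of miR-99a was 1.95% and 3.36%. For the 5p arm, miR-152 had 26.5% and 33.8%, miR-1948 had 15.7% and 22.3%, and miR-148a had 0.704% and 0.850%. The share of the lesser arm was smaller in WI for miR-126a (3p, 15.3% and 13.0%), miR-122 (3p, 6.42% and 5.57%) and miR-151 (5p, 41.9% and 38.7%). Except for miR-1948-5p, none of the arms of these 9 hairpins was called. A share of arms does not depend on how the libraries are scaled.

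**Figure D3:**
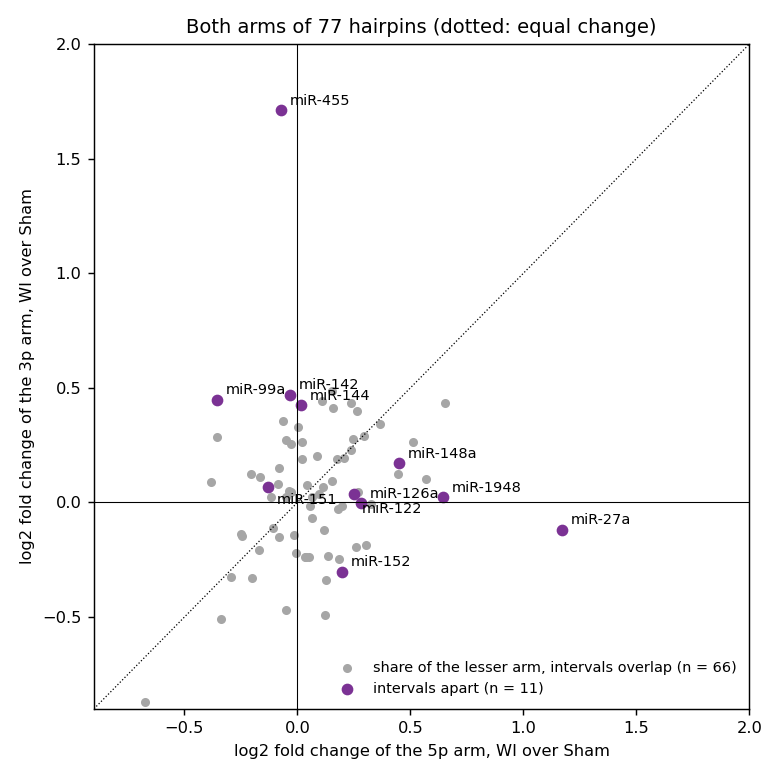
Log2 fold change of WI over Sham of the 5p arm (horizontal) and the 3p arm (vertical) for the 77 hairpins whose arms each had at least 50 reads over both libraries, 1 point per hairpin. The dotted line marks equal change. The 11 named hairpins have lesser-arm shares whose 95% intervals do not overlap between the libraries, with miR-455 and miR-27a far off the line.

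Families with a common seed were then examined. RefSeq held a sequence for 351 of the 411 members, and 106 of these fell into 39 families of 2 or more members. All members were above 0 in 16 families and below 0 in 7, and 16 were mixed. Over all 411 members, 54.3% were above 0 and 45.7% below 0. These are shares of single microRNAs and not of whole families. How many families would lie on 1 side if their members were unrelated was not tested. In 28 families the members lay within 0.5 of each other on the log2 scale.

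The miR-99/100 family, with the seed ACCCGUA, was the best-counted family below 0. MiR-99b-5p had 19913 reads in Sham and 20550 in WI (log2 fold change -0.25, -0.28 to -0.22), miR-100-5p had 8174 and 7541 (-0.41, -0.46 to -0.37), and miR-99a-5p had 2363 and 2269 (-0.36, -0.44 to -0.27). All 3 were below 0 with every scaling tried, and they had 13397, 5748 and 2066 reads in IR. None passed 1.5-fold.

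Members of the let-7 family, which hold back growth genes in differentiated tissue, were mostly above 0 on both arms. Of 9 microRNAs with the let-7 seed GAGGUAG, 8 were above 0, with a median of 0.15. This count was 6 with microRNA read totals, 7 with totals that leave out the 10 most abundant and 9 with genome-aligned totals. Let-7f-5p, the most read, had 93002 reads in Sham and 131590 in WI (0.20). The 5 microRNAs from the other arm of let-7 hairpins with the seed UAUACAA were all above 0 with every scaling tried, with a median of 0.38. They ran from 0.22 for let-7f-1-3p (101 and 145 reads) to 0.44 for let-7b-3p (166 and 277 reads). Let-7a-1-3p and let-7c-2-3p had 155 reads each in Sham and 248 and 247 in WI, and these near-identical arms cannot be taken as separate measurements.

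Further abundant families moved within narrow limits. MiR-30a-5p, miR-30c-5p and miR-30e-5p were at 0.15, 0.22 and 0.29, above 0 with every scaling tried. MiR-30b-5p and miR-30d-5p were not in the seed grouping. They were at 0.18 (3511 and 4894 reads) and -0.03 (43150 and 51911 reads), so not all miR-30 members were above 0. In the miR-29 family, which represses collagen genes, miR-29b-3p was at 0.47 (310 and 526 reads), miR-29c-3p at 0.27 (1963 and 2898) and miR-29a-3p at -0.01 (17320 and 21194). With genome-aligned totals all 3 members were above 0.

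The family of miR-92b-3p, with the seed AUUGCAC, was among the most divided. MiR-92b-3p was called higher (log2 fold change 1.13) and miR-32-5p was at 0.47 (99 and 169 reads, 0.11 to 0.85). MiR-92a-3p, which supplies most reads of the family, had 30409 and 36696 reads (-0.03), miR-25-3p had 5215 and 5851 (-0.13) and miR-363-3p had 12 and 10 (-0.54). Of the 5, 3 were below 0, but only 1 was with genome-aligned totals. The share of miR-92b-3p in the family's reads was 0.0755% (0.0519 to 0.110) in Sham and 0.171% (0.136 to 0.214) in WI. The near-copy miR-92a-3p differs from it at 2 bases, and a read that ends before base 21 tells them apart by 1 base.

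Neighbours in the genome were grouped next. Hairpins within 10 kb of each other on the same strand formed 31 clusters with 122 members. All members were above 0 in 5 clusters and below 0 in 3, beside 54.3% of all 411 members above 0 and 45.7% below 0. The latter are again shares of single microRNAs and not of whole clusters.

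The largest group on 1 side lay in the imprinted Dlk1-Dio3 region of chromosome 12, whose microRNAs are made from the maternal copy. In the window chr12:109709060-109747960 (GRCm38) 9 of 9 members were below 0, with a median of -0.62, and 8 of 9 with genome-aligned totals. Their reads summed to 567 in Sham, 472 in WI and 766 in IR, a summed log2 ratio of WI over Sham of -0.56 (-0.74 to -0.38). MiR-411-5p, the most read, had 283, 243 and 361 reads (-0.52, -0.77 to -0.26), and miR-541-5p had 132, 110 and 221 (-0.56, -0.94 to -0.18). These 2 had intervals clear of 1 and none of the 9 was called. In the neighbouring window chr12:109563692-109595388, with miR-127, miR-434 and miR-136, 3 of 5 members were above 0 and the summed log2 ratio was -0.07 (-0.21 to 0.08). The intervals of the summed ratios did not overlap between the windows. Farther along chromosome 12, on the other strand (chr12:110278048-110278129), miR-1247-5p was called higher (78 and 151 reads). MiR-1247-3p from that hairpin was at 0.43 (24 and 40 reads, -0.33 to 1.23).

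In an intron of Clcn5, a chloride transporter gene, on chromosome X (chrX:7237683-7248497) lay 7 members, and all 7 were below 0, or 5 of 7 with genome-aligned totals. Their summed log2 ratio was -0.48 (-0.60 to -0.35). MiR-501-3p supplied most of the reads, with 933 in Sham, 805 in WI and 502 in IR (-0.51, -0.65 to -0.37). MiR-500-3p, a seed mate in the same intron, had 56, 46 and 41 reads (-0.58, -1.18 to 0.01). The remaining 5 ran from -0.73 to -0.12, each with an interval that spanned 0. MiR-532-5p, whose 3p arm is among these 7, had 1161 reads in Sham and 1203 in WI (-0.25, -0.36 to -0.13).

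Other clusters held together less or moved less. In the miR-30e and miR-30c-1 cluster (chr4:120769534-120772697) 3 of 3 members were above 0, with a summed log2 ratio of 0.29 (0.27 to 0.31). In that of let-7a-1, let-7d and let-7f-1 (chr13:48536012-48538272) 5 of 5 were above 0 (0.22, 0.20 to 0.24). The miR-17 to miR-92a-1 cluster (chr14:115043671-115044506), known from cell growth, had 2 of 8 above 0 and a summed ratio of -0.03 (-0.15 to 0.09).

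**Figure D4:**
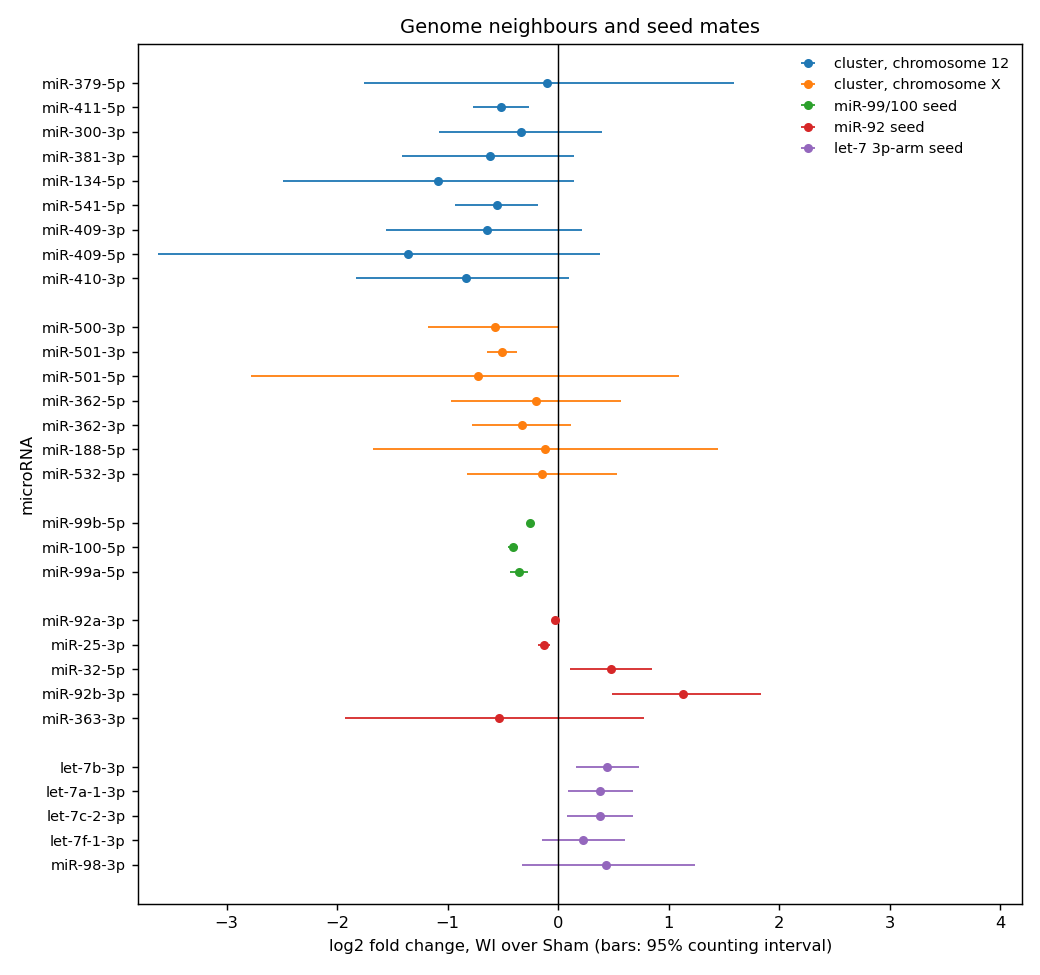
Log2 fold change of WI over Sham with 95% counting intervals for the members of 2 genome clusters (chromosomes 12 and X) and 3 seed families, 1 row per microRNA, coloured by group. All 9 and 7 cluster members and all 3 of the miR-99/100 family lie left of 0 (8 and 5 of the cluster members with genome-aligned totals) and the 5 let-7 3p-arm members right of it, while the miR-92 family spreads to both sides.

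MicroRNAs that mark particular cells were summed by source. In whole tissue, fewer cells of a type and less RNA per cell cannot be told apart. The 11 members of the hepatocyte list held 349688 CPM in Sham and 378938 in WI. Most of this was miR-192-5p (243175 and 258042 CPM), which gut epithelium also makes. No other tissue was compared, so the sum does not check the tissue label. The summed log2 ratio of the list was 0.12 (0.11 to 0.12). Of its 11 members 9 were above 0, against 54.3% of all 411, with none called. The sum was 0.02 with 7 of 11 above 0 with microRNA read totals, and 0.27 with 11 of 11 with genome-aligned totals. MiR-122-5p had 63202 reads in Sham and 92431 in WI (0.25) and miR-802-5p had 2905 and 4596 (0.36).

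Blood markers differed little. The 8 white blood cell members had a summed log2 ratio of -0.01 (-0.04 to 0.02), with 3 above 0, and this sum was 0.15 with genome-aligned totals. MiR-223-3p of neutrophils had 435 and 528 reads (-0.02), and miR-155-5p of activated lymphocytes and macrophages had 80 and 81 (-0.28, -0.74 to 0.19). The 6 red blood cell members summed to -0.08 (-0.11 to -0.06), or 0.07 with genome-aligned totals. MiR-451a had 4107 (Sham), 4666 (WI) and 7028 (IR) reads. MiR-486-5p had 15084 and 17442 reads and its near-copy miR-3107-5p 15033 and 17354, which may be the same reads counted under both names. If so, the summed ratio of the red blood cell list includes these reads under both names, and its interval is too narrow.

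The endothelial list, of miR-126a, miR-221 and miR-222, summed to 0.24 (0.23 to 0.25) and stayed above 0 with every scaling tried. Most of it was miR-126a-5p (64593 and 96481 reads, 0.28), while miR-126a-3p from the same hairpin had 11704 and 14357 (0.00). The 10 stromal members, including miR-143, miR-145a and miR-199, which mark smooth muscle and stellate cells, summed to 0.12 (0.11 to 0.13) with a median of 0.02, or 0.02 with a median of -0.08 with microRNA read totals. The 7 epithelial members of the miR-200 family, which mark bile ducts, summed to -0.03 (-0.12 to 0.06), or 0.13 with genome-aligned totals. None of the members of these 3 lists was called.

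Striated muscle was the 1 cell source whose summed reads passed 1.5-fold. Its 14 microRNAs had 29 (Sham), 124 (WI) and 298 (IR) reads, a log2 ratio of WI over Sham of 1.80 (1.21 to 2.44). Nearly all were miR-133a-3p, the 1 member of the list. The defining muscle microRNA miR-1a-3p had 0 (Sham), 1 (WI) and 6 (IR) reads, miR-133b-3p had 0, 2 and 4, miR-206-3p had 0, 0 and 1, and miR-499-5p had 0, 4 and 0. The part of muscle tissue in the difference of miR-133a-3p was not tested.

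The remaining sources were sparse. The pancreas and gut endocrine list had 142 reads in Sham and 196 in WI (0.17, -0.15 to 0.49). Besides miR-375-3p it held miR-7a-5p with 62 and 73 reads (-0.06), and the acinar marker miR-216a-5p had no read in either library. The neural list had 201 and 306 reads (0.31, 0.05 to 0.57), most of them miR-128-3p (151 and 233, 0.33), which other tissues also make, and miR-124-3p had no read in Sham or WI. The cartilage list summed to -0.08 (-0.15 to -0.02), or 0.07 with genome-aligned totals, because miR-140-3p (3284 and 3530 reads, -0.19) outweighed miR-455-3p.

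The 4 lists of microRNAs known from responses to injury completed the comparison. MiR-210, which hypoxia-inducible factors induce, was not called. MiR-210-3p had 135 (Sham), 198 (WI) and 165 (IR) reads, and miR-210-5p had 12, 22 and 9. Their summed log2 ratio was 0.28 (-0.02 to 0.60), so a difference was not detectable at this depth with TMM scaling. The ratio was 0.18 with microRNA read totals and 0.44 with genome-aligned totals.

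The p53 list summed to 0.44 (0.15 to 0.74). MiR-34a-5p had 135, 214 and 112 reads (0.37, 0.05 to 0.69) and miR-34c-5p was called, though not with microRNA read totals or a 99% interval, whereas miR-34b and the 3p arms had 0 to 3 reads in each library. Both members were above 0 with every scaling tried.

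In the list of inflammation and injury 4 of 9 members were above 0, against 54.3% of all 411. The summed log2 ratio of 0.24 (0.23 to 0.25) was that of miR-21a-5p, which had 135871 (Sham), 198057 (WI) and 183894 (IR) reads (0.25). Its lesser arm miR-21a-3p had 738, 1098 and 1118 reads (0.28). MiR-146a-5p, induced by NF-kappaB, had 5818 and 7189 reads (0.01). The 2 called members, against 2.19% of all 411 called lower, were the arms of 1 hairpin, miR-212, both lower. Neither was called with genome-aligned totals. The list's median was -0.01, against 0.04 over all 411, or 0.15 against 0.19 with genome-aligned totals.

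In the list of lipid metabolism 4 of 7 members were above 0, against 54.3% of all 411. The 2 called, against 3.65% of all 411 called higher, were the arms of 1 hairpin, miR-33. MiR-378a-3p, from an intron of the mitochondrial biogenesis gene Ppargc1b, had 44759 and 56816 reads (0.05), miR-103-3p had 5827 and 6468 (-0.15) and miR-107-3p had 4196 and 5048 (-0.03). The summed log2 ratio was 0.02 (0.01 to 0.04), or -0.08 with microRNA read totals. The rare miR-33 arms were thus the exception in a list whose abundant members stayed level.

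**Figure D5:**
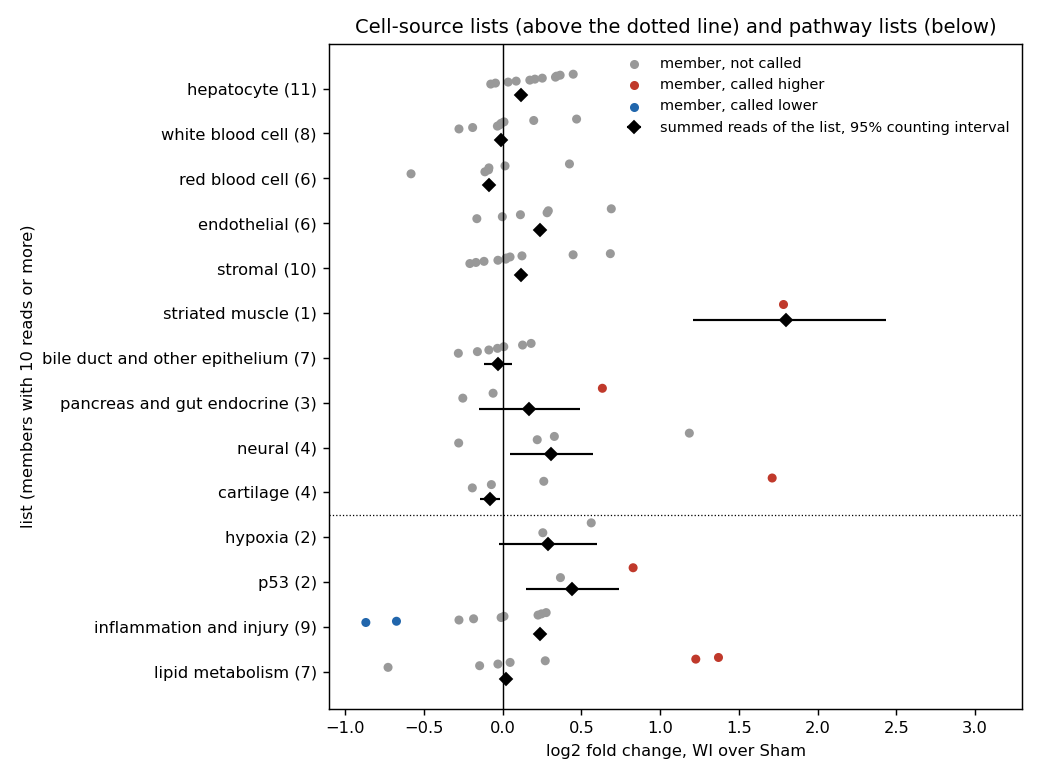
Log2 fold change of WI over Sham for the members of 10 cell-source lists (above the dotted line) and 4 pathway lists (below it), with the number of members in brackets. Dots are single microRNAs and black diamonds the summed reads of each list with its 95% counting interval. The striated muscle list stands at 1.80, and the other lists lie between -0.08 and 0.44.

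MiR-125b-5p and miR-195a-5p, which the study discusses, were not called. MiR-125b-5p had 5569 (Sham), 5978 (WI) and 4774 (IR) reads (-0.19, -0.25 to -0.14). MiR-195a-5p had 789, 744 and 686 reads (-0.38, -0.53 to -0.24), while miR-497-5p from the same cluster had 306, 366 and 325 (-0.04, -0.26 to 0.19). MiR-195a-5p was thus lower in WI than in Sham, with a counting interval clear of 0, but did not reach the fold threshold.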

How the data were processed

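Small RNA of mouse liver was size-selected, ligated to adapters and sequenced on an Illumina HiSeq2000. The deposited values are raw read counts per mature microRNA. To make them, the authors trimmed adapters, kept short reads, aligned them with Bowtie 0.12.7 allowing 1 mismatch, used HTSeq to class the alignments by RNA type and miRDeep2 for the counts. The study's methods name mm9 for small RNA and the submitters' processing notes name mm10. Reads that match near-identical microRNAs may be counted under several names, and no molecular identifiers were used.

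Groups were taken from sample titles. Counts of all 3 libraries were scaled by TMM in edgeR 4.0.16 (R 4.3.3), with factors of 1.03 (Sham), 0.961 (WI) and 1.01 (IR). Log2 fold changes were computed on CPM + 0.1, which understates changes of rare microRNAs. The interval of each ratio is an exact (Clopper-Pearson) 95% binomial interval of the WI reads among both, computed without the pseudocount in scipy 1.17.1, and shares carry Wilson intervals. With 1 library per group no replicate test could be made and no p-value is given. Sequences and coordinates are RefSeq's on GRCm38, and host genes are from GENCODE on mm9, matched by hairpin name. The interval and the calling rule were tried on simulated reads with counting error only and with changes larger than 1.5-fold. Such reads cannot show how the rule fares with variation between animals, PCR copies or errors of scaling. Named microRNAs were the 3 most read, called ones with at least 50 reads (up to 15 each way) with their other arms, seed mates and neighbours within 10 kb, called ones with fewer reads, list members and those the study discusses. Further members of seed families and clusters were named after their values were seen. Members and lists were chosen with earlier results of these data known. The alternatives varied the scaling (microRNA read totals, size factors from DESeq2 1.42.0, or the totals of genome-aligned reads stated by the study), pseudocount, read minimum, fold, interval and test.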

Additional observations from a re-analysis of the deposited data

How the results depend on the processing

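Each group has 1 library, so no library could be left out and variation between animals is unmeasured. No paired analysis was possible because each group has 1 library and the result comes from no replicate test. The counts of 15 higher and 9 lower became 9 and 4 at 2-fold, 3 and 1 when the interval had to clear 1.5-fold, and 29 and 4 with genome-aligned totals, which raise the median of all members from 0.04 to 0.19. The lower count became 18 with microRNA read totals and 16 without the 10 most abundant, with 10 higher in each and medians of -0.06 and -0.05. It became 4 with a 99% interval and 4 with Fisher's exact test at an unadjusted p of 0.01, the study's criterion, with 10 higher in each. With edgeR's exact test (unadjusted p under 0.05) and an assumed coefficient of variation between animals, 13 and 6 were called at 0.1, 6 and 2 at 0.2, and 2 and 0 at 0.4. The 2 left at 0.4 were miR-5100 and miR-455-3p. DESeq2 size factors gave 14 and 12, and TMM of WI and Sham alone and a pseudocount of 1 each gave 15 and 9. A read minimum of 1 gave 16 and 9, and of 50 gave 13 and 6. Over 1032 recomputed log2 fold changes of 172 named microRNAs, 16 lost the call and 20 gained one. Of those not called, 165 moved outside their main counting interval. No called one changed sign, but each scaling moved the median by less than the fold threshold, so a sign change could hardly occur. Of 120 recomputed group sums, 57 stayed within their main counting interval. The calls of miR-10b-5p, miR-1247-5p, miR-1948-5p, miR-34c-5p and miR-375-3p were lost with microRNA read totals, and those of miR-212-3p, miR-212-5p, miR-219a-1-3p, miR-331-5p and miR-6236 with genome-aligned totals, in each case because the common scale shifts.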

Other observations

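Some values belong to no comparison above. Among the 39 members named without an arm, 16 were above 0 and the median log2 fold change of WI over Sham was -0.11, or 0.04 with genome-aligned totals, against 0.04 for the 372 named with an arm. One of the 39 was called higher (miR-5100) and 2 lower (miR-6236 and miR-6238). Over all 411 members, 54.3% were above 0, 3.65% were called higher and 2.19% lower. The reads of the 39 summed to 20669 in Sham, 23195 in WI and 38209 in IR. MiR-6240, chosen after its values were seen, had 3291 (Sham), 2768 (WI) and 14117 (IR) reads, a log2 fold change of WI over Sham of -0.55 (-0.62 to -0.47).

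Base composition was read from the RefSeq sequences of the 253 members with at least 50 reads and an entry. The median log2 fold change was 0.18 for 50 microRNAs with up to 40% G and C, 0.05 for 124 with over 40% to 50%, -0.02 for 52 with over 50% to 60% and 0.06 for 27 with over 60%. Pearson's r between log2 fold change and G and C content was -0.09 and Spearman's rho was -0.18 over these 253, which share the same 2 libraries. The part of base composition in the differences above was not tested.

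By position, 105 members in introns on the strand of the host gene had a median log2 fold change of -0.03, 34 in exons had 0.01 and 98 outside other genes had 0.08.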
